A study of Homo sapiens with 6 samples.

Results

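Cadherins, catenins and desmosome proteins hold epithelial cells together, and the mRNA of 10 genes that encode them was followed in HCT15, a long-established line of human colorectal cancer cells. The genes were taken by their symbols in the deposited table: the cadherins CDH1, CDH3 and CDH17, the catenins CTNNB1, CTNND1 and JUP, and the desmosome genes DSG2, DSC2, DSP and PKP2. All 10 were among the 12793 rows of that table, and all 10 passed the filter of a mean of at least 1 FPKM (a fragment count scaled by transcript length and by the library's mapped total), as 11451 rows did. RNA-seq was done on 6 libraries: 3 of wild-type cells with a control guide, and 3 of cells labelled RBM15 knockout, made with CRISPR/Cas9, in which a guide RNA directs a nuclease to cut DNA. Both groups were grown in the same serum-containing medium with no other treatment named, and the sources used here do not say if the knockout cells were 1 clone or a pool. RBM15 helps bring the m6A methyltransferase to its RNA targets, and the study asked what its loss does inside the tumour cells.

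Classical cadherins span the membrane, bind the same cadherin on the neighbouring cell and hold catenins on their inner tail, which link them to actin. Beta-catenin, encoded by CTNNB1, sits in that complex and is also the transcription partner of Wnt signalling, whose turnover is disturbed in most colorectal cancers. Desmosomes are built the same way from desmogleins and desmocollins, with plakoglobin (JUP), plakophilins and desmoplakin tying them to keratin filaments.

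The targeted gene did not go down: RBM15 mRNA was above the controls in all 3 libraries labelled knockout (5.51 to 5.97 FPKM in the controls, 17.3 to 18.5 FPKM in the libraries labelled knockout), a log2 difference of 1.48 (limma adjusted p = 3.88e-06), so every direction given here depends on the labels. A gene that "rose" passed the test as higher, and one that "fell" as lower, in the group labelled knockout. RBM15 shares 175 bp of exon with its antisense gene RBM15-AS1, and the position of the guide is not known here. Column sums lay between 402288 and 415057 FPKM, and because read totals could not be recovered the depth is unknown. Pairs of libraries correlated, on the log2 scale, at 0.992 to 0.993 inside a group and 0.976 to 0.978 across groups. Separate cultures are nowhere named for the 3 libraries of a group, and the p-values therefore cover the spread among these libraries alone, which may be technical. Of 14 markers of colorectal epithelium 10 were tested, with KRT8, KRT18 and EPCAM the most abundant, while 1 of 12 leukocyte markers (CD68), 1 of 7 endothelial markers (CLDN5) and 1 of 9 fibroblast markers (COL1A1) had a row. The colorectal epithelium markers KRT20, CDX1, LGALS4 and GPA33 had no row and were not analysed here. CD68 lay at 2.66 to 3.08 FPKM in the controls, against 6.03 to 7.29 FPKM in the libraries labelled knockout, CLDN5 at 1.11 to 1.34 and 0.725 to 0.872 FPKM, and COL1A1 at 0.917 to 1.41 and 0.835 to 1.41 FPKM.

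Of the 10 junction genes, 3 rose (CTNNB1, DSG2 and DSP) and 3 fell (CDH17, JUP and PKP2) at an adjusted p of at most 0.05 in limma, and 4 did not pass (CDH1, CDH3, CTNND1 and DSC2). Among all tested genes 54.5% passed, 25.3% higher and 29.2% lower, so 6 of 10 is close to that background. CDH17 had the largest difference of the 10, a fall to 0.309 of its control level, and the other 5 that passed had ratios of means from 0.78 to 1.17. The median log2 difference was -0.0184 over the 10 genes and -0.0184 over all tested genes, where a log2 difference is taken on log2(FPKM + 1), labelled knockout minus control. In size alone, the median was 0.22 for the 10 genes and 0.206 for all. Each value with ± is a mean and SD in FPKM over the 3 libraries of a group. In bulk RNA, fewer cells that express a gene and less of its RNA per cell cannot be told apart.

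**Figure D1:**
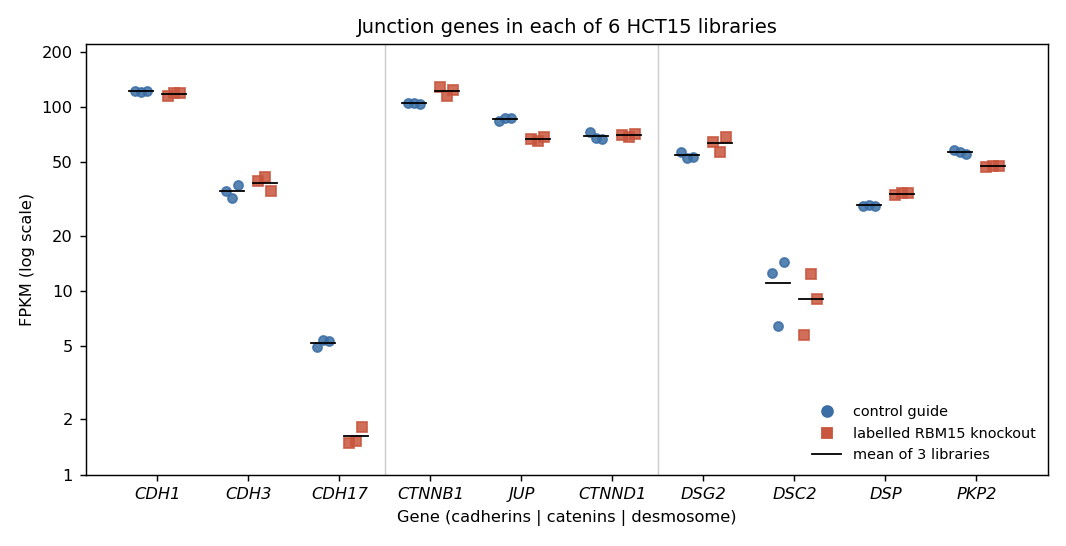
FPKM of each junction gene on a log axis in 3 control libraries (circles) and 3 libraries labelled RBM15 knockout (squares), with the mean of each group as a bar. CDH17 falls from about 5.24 to 1.62 FPKM, while DSC2 scatters from 5.79 to 14.3 FPKM across both groups.

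FPKM is scaled by length, so levels can be set side by side. In the control libraries CDH1 stood highest at 122.1 ± 1.14 FPKM, followed by CTNNB1, JUP, CTNND1, PKP2, DSG2, CDH3, DSP, DSC2 and CDH17. Only PKP2 (55.5 to 58.1 FPKM) and DSG2 (52.8 to 57.1 FPKM) overlapped among neighbours in that order. In the libraries labelled knockout CTNNB1 came first at 122.7 ± 7.08 FPKM, with CDH1 overlapping it at 117.9 ± 2.27 FPKM. JUP stood below CTNND1, though these overlapped, and DSG2 stood above PKP2 without overlap. The 10 genes together summed to 563.4 to 581.3 FPKM in the controls, against 563.0 to 579.4 FPKM in the libraries labelled knockout.

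CDH1 encodes E-cadherin, the main adhesion receptor of the epithelial adherens junction. Control libraries 1, 2 and 3 held 122.8, 120.8 and 122.8 FPKM, and the libraries labelled knockout 115.4, 119.8 and 118.5 FPKM. Every library labelled knockout was below every control. The difference came to -0.05 on the log2 scale (SE 0.027, limma adjusted p = 0.154), with a 95% interval of -0.11 to 0.01. This interval covers changes from 0.923-fold to 1.01-fold on the FPKM + 1 scale. With a trend over GC content and transcript length taken out, the difference was -0.08 and passed (limma adjusted p = 0.0395).

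CDH3 encodes P-cadherin, a classical cadherin of basal epithelia. It measured 35.0, 31.9 and 37.8 FPKM in the controls, against 39.5, 41.4 and 35.0 FPKM in the libraries labelled knockout, and the groups overlapped. The log2 difference was 0.14 (limma adjusted p = 0.166; interval -0.04 to 0.33). CDH3 (ENSG00000062038, chromosome 16 at 68636189 to 68722616) and CDH1 (ENSG00000039068, chromosome 16 at 68737225 to 68835548) are neighbours on the plus strand in GRCh38. A gap of 14.6 kb with 0 coding genes separates them. Both share exon bases with an antisense gene, 694 bp for CDH3 and 347 bp for CDH1, and the sources used here do not say if strand was used to assign reads.

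CDH17 encodes LI-cadherin, an adhesion protein of the intestinal lining whose short cytoplasmic tail does not bind catenins, and a known target of the intestinal transcription factor CDX2. Control libraries held 4.94, 5.43 and 5.34 FPKM, and libraries labelled knockout 1.49, 1.53 and 1.83 FPKM. The groups were far apart, and even the highest library labelled knockout held less than the lowest control. CDH17 (ENSG00000079112, chromosome 8 at 94127171 to 94217303, minus strand) fell by 1.26 on the log2 scale (SE 0.076, limma adjusted p = 3.9e-05). The drop in FPKM was to 0.309 of the control, since the added 1 FPKM makes the log2 difference of a low gene smaller. Of all tested genes 1.34% passed with a fall of at least 1 on that scale, and 0.629% had a lower difference than CDH17. CDX2 fell from 20.9 ± 0.138 to 9.52 ± 0.254 FPKM, and among the colorectal epithelium markers 9 of 10 fell and 1 (KRT8) rose, where 29.2% of all tested genes fell and 25.3% rose. Those markers summed to 4301.8 to 4378.9 FPKM in the controls, against 3737.5 to 3886.8 FPKM in the libraries labelled knockout, and their part in the CDH17 difference was not tested.

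CTNNB1 rose. Beta-catenin mRNA measured 104.7, 104.7 and 104.1 FPKM across the controls, against 128.9, 114.9 and 124.2 FPKM in the other group. The controls lay close together, the libraries labelled knockout spread more widely, and the groups did not overlap. The rise was 0.23 on the log2 scale (SE 0.044, limma adjusted p = 0.00415), a ratio of means of 1.17. CTNNB1 (ENSG00000168036) lies on chromosome 3 at 41194741 to 41260096.

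JUP encodes plakoglobin, the close relative of beta-catenin that serves both the adherens junction and the desmosome. It went the other way, from 84.2, 87.1 and 86.7 FPKM to 66.8, 65.4 and 69.0 FPKM, again without overlap. Its log2 difference was -0.35 (SE 0.032, limma adjusted p = 0.000165). Removing the GC and length trend gave -0.20 (limma adjusted p = 0.00199). JUP (ENSG00000173801, chromosome 17 at 41754604 to 41786931) had the highest GC content of the 10 genes, 61.5% over its longest transcript. The sum of both relatives was 190.5 ± 1.48 FPKM in the controls, against 189.7 ± 8.23 FPKM in the libraries labelled knockout.

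CTNND1 encodes p120-catenin, which binds the cadherin tail near the membrane and keeps cadherins from being taken into the cell. Its level was 72.9, 68.1 and 67.1 FPKM in the controls, against 70.2, 68.8 and 71.0 FPKM in the libraries labelled knockout. The libraries labelled knockout all lay inside the control range. The log2 difference was 0.01 (limma adjusted p = 0.782; interval -0.08 to 0.11), and its sign flipped to -0.06 when the GC and length trend was removed. Exons of CTNND1 share 321 bp with the read-through gene TMX2-CTNND1 and 289 bp with AP001931.1, a coding gene on the same strand. How reads of those stretches were divided bears on the value of CTNND1.

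The desmosomal cadherins DSG2 and DSC2 form the outer part of the desmosome. DSG2, desmoglein 2, measured 57.1, 52.8 and 53.7 FPKM in the controls, against 64.7, 56.8 and 69.0 FPKM in the libraries labelled knockout. Library 2 labelled knockout fell within the control range, and the other two lay above it. This gave a log2 difference of 0.21 (SE 0.072, limma adjusted p = 0.0405). That call was lost without control library 2 (adjusted p = 0.112), control library 3 (0.1), library 1 labelled knockout (0.105) or library 3 labelled knockout (0.107), without a variance trend (0.0588) and once the GC and length trend was taken out (0.0736). DSG2 also shares 171 bp of exon with the antisense gene DSG2-AS1.

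DSC2, desmocollin 2, was the least steady of the 10 genes. Controls held 12.5, 6.43 and 14.3 FPKM and libraries labelled knockout 5.79, 12.4 and 9.06 FPKM, so low and high libraries were found in both groups. Its within-group SD was 0.529 on the log2 scale, larger than that of 98.7% of all tested genes and of 99.3% of the 4777 tested genes within 2-fold of its mean level. The other 9 genes had SDs of 0.0142 (DSP) to 0.12 (CDH3). The log2 difference of DSC2 was -0.25 with an interval from -1.03 to 0.53 (limma adjusted p = 0.546), which leaves changes from 0.491-fold to 1.44-fold within the error. Without library 1 labelled knockout the difference was 0.01. Its longest transcript in GENCODE 29 has 12325 bases, the longest among these genes, and 38.9% GC, the lowest. DSC2 and DSG2 lie on chromosome 18, at 31058840 to 31102522 and 31498043 to 31549008. Between them lie 4 coding genes, all desmosomal cadherins (DSC1, DSG1, DSG3 and DSG4), which had no row and were not analysed here.

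DSP encodes desmoplakin, which binds keratin filaments. It had the tightest replicates of the 10 genes: 28.9, 29.4 and 29.1 FPKM in the controls, against 33.4, 34.1 and 34.0 FPKM in the libraries labelled knockout. The groups stood well apart next to that scatter. The rise was 0.21 on the log2 scale (SE 0.031, limma adjusted p = 0.0013), or 0.11 once the GC and length trend was taken out (adjusted p = 0.0229). DSP (ENSG00000096696) lies on chromosome 6 at 7541575 to 7586717.

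PKP2 encodes plakophilin 2, the plaque protein that gathers desmoplakin at the membrane. Its 58.1, 56.7 and 55.5 FPKM in the controls compared with 47.0, 47.8 and 47.7 FPKM in the libraries labelled knockout. All 3 libraries labelled knockout were below all 3 controls. PKP2 (ENSG00000057294, chromosome 12 at 32790745 to 32896840) fell by 0.25 on the log2 scale (SE 0.031, limma adjusted p = 0.000611). Desmoplakin and its plaque partner moved in opposite directions: the mean of DSP was 16.2% higher, and that of PKP2 fell by 16.3%. Once the GC and length trend was taken out, the log2 differences were 0.11 for DSP and -0.27 for PKP2.

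**Figure D2:**
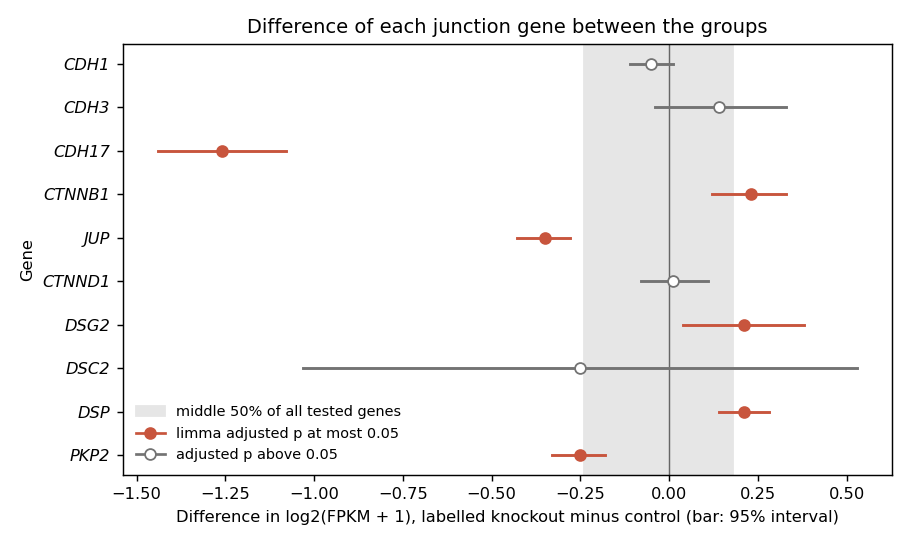
Difference in log2(FPKM + 1) of each junction gene, labelled knockout minus control, with its 95% interval from limma; filled points passed at adjusted p of 0.05 and the grey band spans the middle 50% of all tested genes (-0.24 to 0.18). CDH17 lies far to the left at -1.26 and DSC2 has the widest interval, from -1.03 to 0.53.

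Values of 6 genes did not overlap between the groups (CDH1, CDH17, CTNNB1, DSP, PKP2 and JUP), against 63.0% of all tested genes. For each of these 6 the exact 2-sided permutation test of FPKM over the 20 assignments of the libraries returned p = 0.1, and 3 against 3 allows no smaller value. The same exact permutation test gave 0.2 for DSG2, 0.3 for CDH3, 0.5 for DSC2 and 0.8 for CTNND1.

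Ratios of partner genes within a library do not depend on how that library was scaled, and 9 pairs were compared. A trend over GC content and transcript length differs between genes, so it does not cancel in a ratio, and it was not removed here. With that trend removed from single genes, log2 differences were -0.20 for JUP, 0.19 for CTNNB1, 0.11 for DSP and -0.27 for PKP2. Groups did not overlap in 6 of the 9 pairs. Among single tested genes 63.0% did not overlap, and no share over other pairs was computed. Plakoglobin to beta-catenin (JUP to CTNNB1) had ratios of 0.804, 0.832 and 0.832 in the controls and 0.519, 0.569 and 0.556 in the libraries labelled knockout, a log2 difference of -0.59. Plakophilin 2 to desmoplakin (PKP2 to DSP) was 2.01, 1.93 and 1.91 in the controls and 1.4, 1.4 and 1.41 in the libraries labelled knockout. Desmoplakin to plakoglobin (DSP to JUP) was 0.339 ± 0.00363 and 0.505 ± 0.0151. In these 3 ratios every library labelled knockout lay on 1 side of every control. The single genes had fixed that outcome, since in each pair 1 gene was higher and the other lower without overlap. The same holds for CTNNB1 to CDH1, so these separations add no support to the single genes.

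Against E-cadherin, beta-catenin (CTNNB1 to CDH1) stood at 0.856 ± 0.00983 in the controls and 1.04 ± 0.0788 in the libraries labelled knockout, and desmoglein 2 (DSG2 to CDH1) at 0.446 ± 0.0163 and 0.539 ± 0.0575. LI-cadherin (CDH17 to CDH1) stood at 0.0429 ± 0.0024 and 0.0137 ± 0.00149. The groups overlapped for P-cadherin to E-cadherin (0.286 ± 0.0218 and 0.328 ± 0.028), p120-catenin to E-cadherin (0.568 ± 0.0243 and 0.594 ± 0.0177) and desmocollin 2 to desmoglein 2 (0.203 ± 0.0741 and 0.147 ± 0.0662). Each of the 6 separated pairs had p = 0.1, the minimum, in the exact 2-sided permutation test, and 0.15 after Benjamini-Hochberg adjustment over the 9 pairs, so no pair passed. Several pairs share a gene and are not independent.

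**Figure D3:**
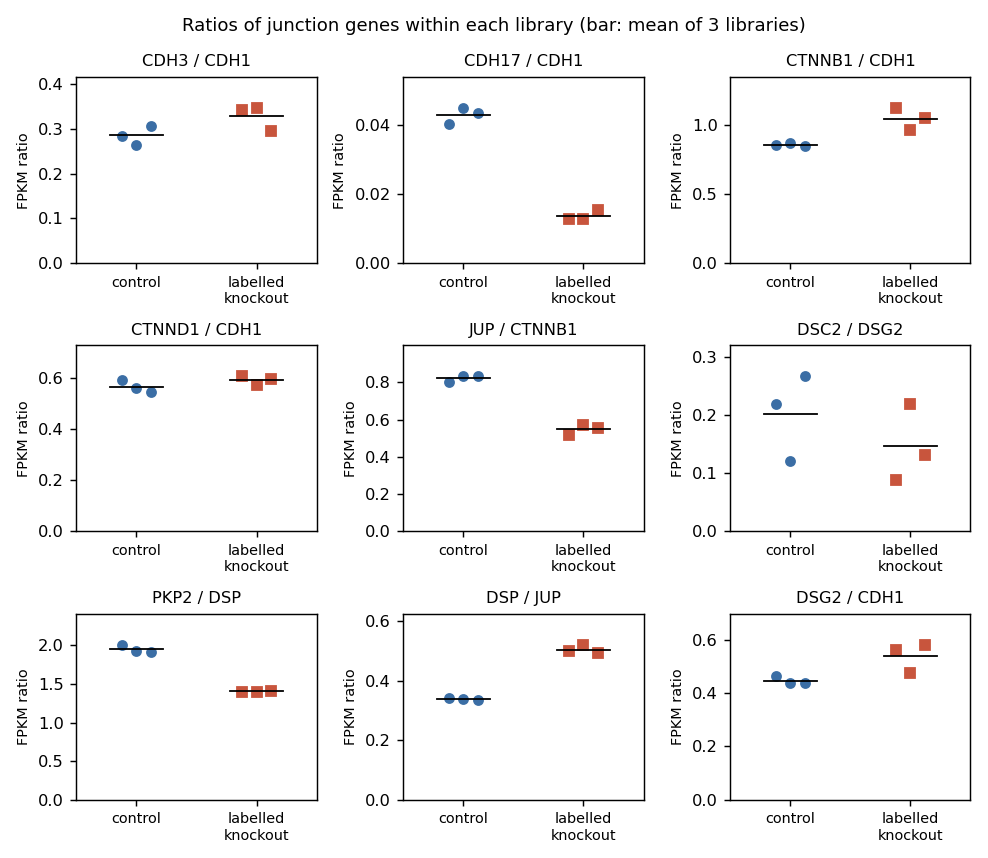
FPKM ratio of 9 pairs of junction genes in each library, with axes from 0 and the mean of 3 libraries as a bar. The ratio of PKP2 to DSP averages 1.95 in the controls and 1.4 in the libraries labelled knockout, with little scatter, while that of DSC2 to DSG2 overlaps between the groups.

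Promoter windows from RefSeq (GRCh38.p14) were matched by symbol for 5 of the 10 genes: CTNNB1, DSG2, DSC2, DSP and JUP, and CDH1, CDH3, CDH17, CTNND1 and PKP2 had none. The 250 bases before the first listed start were searched on both strands for 3 motifs: the E-box CACCTG, bound by the SNAI and ZEB repressors of cadherins, the TCF motif CTTTGAT, through which beta-catenin acts, and the AP-1 motif TGANTCA. Windows of DSG2, DSP and DSC2 held the E-box, and 17.5% of 27305 promoter windows did. The 5 windows held neither of the other motifs, no match overlapped another, and 2.28% of all windows held the TCF motif and 6.6% the AP-1 motif. DSG2 and DSP, which both rose, are shown because each holds the E-box at 2 places, written in capitals in either orientation. They are set beside CTNNB1 and JUP, the relatives that moved in opposite directions and held no match. Each is written 5′ to 3′ on the strand of its gene.
DSG2, chr18:31497927-31498176, plus strand: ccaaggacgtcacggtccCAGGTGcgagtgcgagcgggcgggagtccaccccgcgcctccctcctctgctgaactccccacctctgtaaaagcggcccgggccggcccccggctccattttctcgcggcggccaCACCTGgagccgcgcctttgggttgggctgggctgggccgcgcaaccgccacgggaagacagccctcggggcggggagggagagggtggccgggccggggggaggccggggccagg
DSP, chr6:7541421-7541670, plus strand: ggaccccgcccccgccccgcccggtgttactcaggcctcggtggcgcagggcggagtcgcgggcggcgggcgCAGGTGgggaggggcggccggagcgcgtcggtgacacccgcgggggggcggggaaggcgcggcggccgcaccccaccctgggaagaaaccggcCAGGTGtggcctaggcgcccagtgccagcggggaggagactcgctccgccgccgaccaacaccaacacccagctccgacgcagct
CTNNB1, chr3:41199255-41199504, plus strand: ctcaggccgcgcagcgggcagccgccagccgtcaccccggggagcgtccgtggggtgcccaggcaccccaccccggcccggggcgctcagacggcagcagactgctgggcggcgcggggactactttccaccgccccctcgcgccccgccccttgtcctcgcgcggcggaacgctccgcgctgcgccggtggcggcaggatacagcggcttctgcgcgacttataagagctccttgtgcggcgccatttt
JUP, chr17:41786712-41786961, minus strand: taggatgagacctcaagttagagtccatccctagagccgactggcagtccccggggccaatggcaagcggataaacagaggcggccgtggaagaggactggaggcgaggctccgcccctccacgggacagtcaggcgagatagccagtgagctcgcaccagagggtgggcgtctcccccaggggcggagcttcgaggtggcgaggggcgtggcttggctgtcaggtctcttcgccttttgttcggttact
The E-box of DSG2 starts 232 and 116 bases before the RefSeq start, that of DSP 178 and 85 bases before it, and DSC2 has it once, at 156 bases. The RefSeq starts of the genes printed lie inside the GENCODE spans given above. The whole CTNNB1 window and parts of the DSG2, DSP and JUP windows fall within those spans. So do the DSG2 match at 116 bases and the DSP match at 85 bases. GC content was 75.2% for DSG2, 78.0% for DSP, 74.4% for CTNNB1 and 63.6% for JUP. A match is a run of letters and does not show binding.

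Of 15 factors known to repress cadherin genes 5 were tested, and 1 rose and 1 fell (40.0% passed, with 54.5% over all genes). SNAI2, ZEB1, ZEB2 and TWIST1 had no row and were not analysed here. The 2 that passed became 1 with the replicate block and under other alternatives. SNAI1, which encodes Snail, fell from 4.34 ± 0.471 to 3.03 ± 0.108 FPKM (log2 difference -0.40, limma adjusted p = 0.0045). BMI1, a Polycomb protein gene, rose from 36.9 ± 0.79 to 40.0 ± 1.48 FPKM, and its adjusted p of 0.0436 from limma was near the threshold. Among factors of the epithelial state, 3 rose and 9 fell of 14 tested, with a median log2 difference of -0.29 (85.7% passed, against 54.5% of all tested genes). ELF3 fell from 28.2 ± 1.04 to 10.9 ± 0.728 FPKM, CDX2 as given above, EHF from 21.0 ± 2.56 to 11.6 ± 1.37 FPKM and the splicing factor gene ESRP1 from 19.5 ± 0.375 to 11.2 ± 0.841 FPKM. The 3 that rose, named after their values were seen, were GRHL1, OVOL1 and ESRP2. ESRP2, the close relative of ESRP1, rose from 25.5 ± 0.933 to 30.5 ± 1.68 FPKM. For E-cadherin mRNA in the same libraries the interval given above was 0.923-fold to 1.01-fold. CDX2 is also among the colorectal epithelium markers.

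Genes of other adherens junction proteins split, 6 rising and 5 falling of 21 tested, which is 52.4% against 54.5% of all genes. Alpha-catenin, the link from beta-catenin to actin, rose with CTNNA1 from 79.3 ± 3.24 to 89.1 ± 2.79 FPKM (log2 difference 0.17, limma adjusted p = 0.0115). The alpha-catenin relative CTNNAL1 rose by 0.27 on the log2 scale. Of the nectins, which start contacts beside cadherins, NECTIN1 rose from 1.77 ± 0.338 to 2.76 ± 0.15 FPKM and NECTIN4 fell from 2.38 ± 0.395 to 1.45 ± 0.131 FPKM. NECTIN2, by far the most abundant tested nectin and named after its values were seen, fell from 57.5 ± 0.102 to 51.8 ± 1.04 FPKM. Its log2 difference was -0.15 (limma adjusted p = 0.00469). VASP, an actin assembly factor gene, fell from 57.5 ± 1.01 to 44.4 ± 1.49 FPKM.

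Among 13 other genes listed for the desmosome 7 were tested, and 1 rose and 2 fell (42.9% passed, against 54.5% of all tested genes). PERP, a membrane protein of desmosomes and a p53 target, fell from 96.0 ± 3.65 to 78.0 ± 1.42 FPKM. TMEM65, whose place in desmosomes is uncertain, fell by 0.22 on the log2 scale. PNN, which encodes pinin, mainly a nuclear splicing protein, rose from 69.2 ± 1.99 to 85.6 ± 1.9 FPKM. PKP3, another plakophilin, did not pass, at 24.8 ± 1.28 and 24.3 ± 0.729 FPKM (log2 difference -0.03, limma adjusted p = 0.659). Removing the GC and length trend brought the number that passed to 6. PKP4, a plakophilin listed with the adherens junction genes and named after its values were seen, fell from 31.3 ± 0.418 to 26.2 ± 1.84 FPKM. Its log2 difference was -0.25 (limma adjusted p = 0.00662). PKP1, named after its values were seen, was under the filter, at 0.548 to 0.758 FPKM in the controls, against 0.101 to 0.167 FPKM in the libraries labelled knockout.

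Of 48 other genes of the cadherin superfamily 9 were tested, and 4 rose and 2 fell (66.7% passed, with 54.5% over all genes). PCDH7, a protocadherin gene, rose from 1.91 ± 0.107 to 4.56 ± 0.148 FPKM (log2 difference 0.93, limma adjusted p = 5.43e-05). PCDH1 rose by 0.29 and CDH24 by 0.28, and CELSR2, which serves planar cell polarity, fell by 0.23 on the log2 scale. CDHR5, a cadherin of the brush border, lay under the filter, at 1.14 to 1.5 FPKM in the controls, against 0.205 to 0.304 FPKM in the libraries labelled knockout, and was named after its values were seen. CDH7 and CDH12, also under the filter and named after their values were seen, were lower too, below 1 FPKM in every library. Without a filter 9 genes of the list passed in place of 6.

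Beta-catenin is destroyed by a complex of APC, axin and kinases, and 6 of 21 tested genes of that machinery rose and 3 fell. AMER1, which anchors APC at the membrane, rose from 1.10 ± 0.0191 to 1.76 ± 0.0898 FPKM and APC from 3.86 ± 0.263 to 5.27 ± 0.21 FPKM. SIAH1, a ubiquitin ligase gene, fell by 0.33, and the deubiquitinase gene USP7 rose by 0.32 on the log2 scale. Among 22 tested genes listed for transcription with beta-catenin, which include co-repressors, 5 rose and 5 fell. In the figure of the lists they are labelled nuclear beta-catenin partners. SOX9 fell from 57.9 ± 1.48 to 27.7 ± 1.76 FPKM, the beta-catenin antagonist gene CBY1 from 29.1 ± 1.7 to 20.6 ± 1.41 FPKM and the co-repressor gene TLE2 from 8.16 ± 0.362 to 5.29 ± 0.213 FPKM. TLE3, of the same co-repressor family, rose from 4.53 ± 0.447 to 7.6 ± 0.352 FPKM. Both shares of called genes (42.9% and 45.5%) were below the 54.5% of all tested genes.

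Tight junctions lie above the adherens junction in the same contact, and their genes gave another count: 12 of 21 tested fell and 3 rose, with a median log2 difference of -0.28 (71.4% passed, against 54.5% of all tested genes). TJP3, a scaffold gene, fell from 43.5 ± 0.545 to 17.4 ± 0.716 FPKM. CLDN3 fell by 0.73, CLDN7 by 0.69 and CLDN4 by 0.68 on the log2 scale, and these 3 also belong to the colorectal epithelium markers. The difference between that list and the 10 junction genes was not tested.

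**Figure D4:**
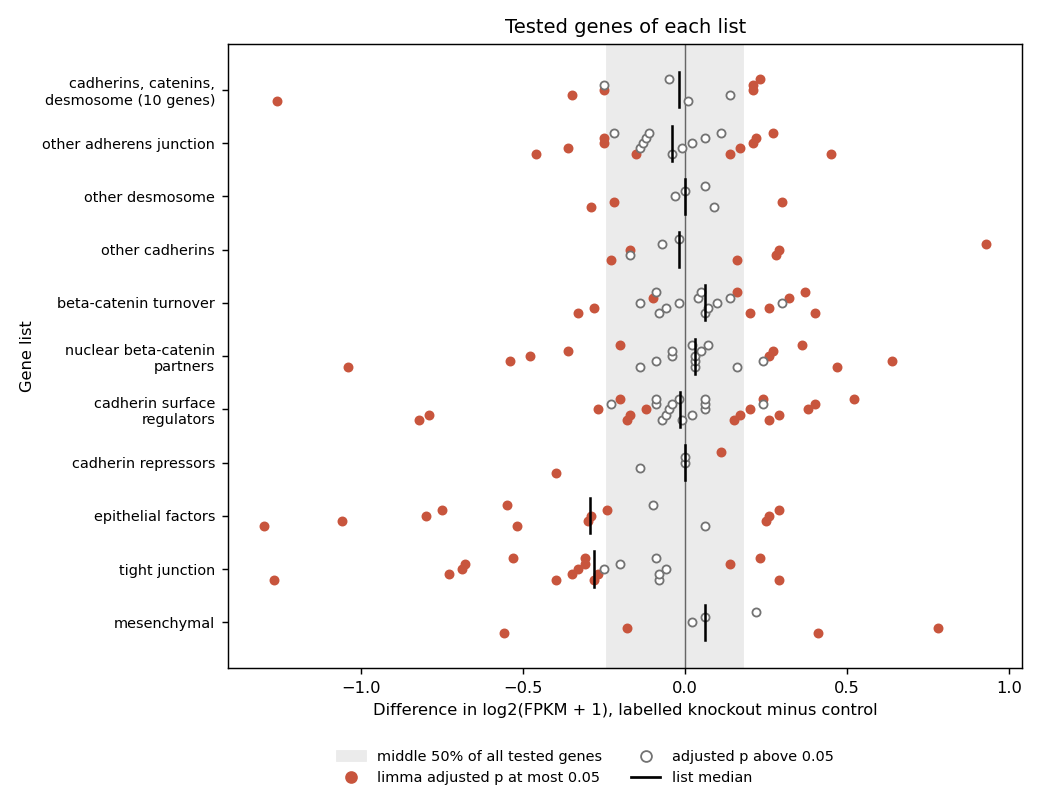
Difference in log2(FPKM + 1) of each tested gene, labelled knockout minus control, by list; filled points passed at adjusted p of 0.05, a black bar marks the list median and the grey band the middle 50% of all tested genes. Medians of tight junction genes (-0.28) and epithelial factors (-0.29) lie to the left of the band, and those of the other lists shown lie inside it.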

How the data were processed

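The authors deposited FPKM for 6 libraries in 1 table, per the file headers. The tools StringTie 2.0.4 and HISAT2 2.2.1 and the build hg38 are named, per the submitters' processing notes. The sources used here do not give settings, annotation, strand use or the row filter. FPKM are scaled by length and mapped total. Below 0.5 FPKM, no window 0.1% wide held more than 0.93% of the between-library ratios, so whole reads were not recovered. Groups came from the titles.

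log2(FPKM + 1) of the 11451 rows with a mean of at least 1 FPKM was fitted with limma 3.58.1 in R 4.3.3, without covariates and with a variance trend. P-values were 2-sided and adjusted by Benjamini-Hochberg over all tested rows, with a threshold of 0.05, and the fit was tested on simulated data. Genes were matched by Ensembl identifier, coordinates are from GENCODE 29 (GRCh38), and 12220 rows matched it. Python 3.11.15 with scipy 1.17.1 gave the exact permutation tests.

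Genes and lists were chosen with earlier results of these data known, so counts over lists are descriptions. The rule named all 10 junction genes, RBM15, CBLL1, CTNNA1 and PKP3. It also named up to 4 called genes with the largest difference of each list, and the 2 most abundant where fewer than 2 were called. One gene that the rule named is not reported here. The alternatives tried were leaving out each library, a replicate block, removing a GC and length trend, fitting without a variance trend, 3 other scalings (quantiles, medians, a common sum), a filter at 5 FPKM or none, and a pseudocount of 0.1.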

Additional observations from a re-analysis of the deposited data

How the results depend on the processing

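RBM15 kept its direction and call under the 15 alternatives run. So did CTNNB1, DSP, PKP2 and JUP, and CDH17 under the 14 that could be run, since it fell below a filter at 5 FPKM. Their log2 differences ranged from 0.19 to 0.27 for CTNNB1, 0.11 to 0.24 for DSP, -0.27 to -0.22 for PKP2, -0.37 to -0.20 for JUP and -1.64 to -1.15 for CDH17. DSG2 lost its call under 6 of 15, CDH1 gained one under 1, and CDH3, CTNND1 and DSC2 never passed. The count of called junction genes was 5 or 6 throughout, but which genes passed changed. Once the GC and length trend was taken out, 2 were higher and 4 lower, in place of 3 and 3. Counts over all genes ranged from 5083 (filter at 5 FPKM) to 6612 (no filter), and the share of called genes that were higher, 46.4%, was at most 55.4%, once the GC and length trend was taken out.

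Replicate numbers did not pair the libraries: deviations of same-numbered libraries correlated at -0.0367 to 4.54e-05, and 0 of 6 libraries correlated best with their own number. With the replicate block 5782 genes passed in place of 6245, and 6 of the 10 junction genes did. The called cadherin repressors were 1, not 2, with the replicate block, a filter at 5 FPKM, quantile normalization or no variance trend, and 1 to 2 when a library was left out, since 1 was the count without any library but library 2 labelled knockout. Called desmosome partners were 6 in place of 3 once the GC and length trend was taken out, and called mesenchymal genes were 2 in place of 4 with a filter at 5 FPKM, where fewer genes were tested. The log2 difference of the ratio of CDH17 to CDH1 was -1.65, and -1.20 from FPKM + 1, which weighs on a low gene. Otherwise the cause was not tested.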

Other observations

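The list of enzymes and traffic proteins that act on cadherins at the cell surface included 9 genes that rose and 7 that fell of 30 tested (53.3%, against 54.5% of all tested genes). CBLL1 encodes Hakai, a ubiquitin ligase for E-cadherin that is also part of the m6A writer complex. It measured 11.2 ± 0.543 FPKM in the controls and rose to 13.7 ± 0.637 FPKM (log2 difference 0.26, limma adjusted p = 0.00579). FURIN, a protease that trims cadherin precursors, fell from 36.9 ± 0.828 to 20.4 ± 0.177 FPKM, and PCSK7, of the same protease family, rose from 11.1 ± 0.263 to 16.4 ± 0.651 FPKM. The kinase gene FYN fell from 13.1 ± 1.88 to 7.11 ± 0.373 FPKM and the tyrosine phosphatase gene PTPN1 rose from 20.1 ± 0.446 to 26.9 ± 1.23 FPKM.

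Of 22 mesenchymal genes 7 were tested, and 2 rose and 2 fell (57.1% passed, against 54.5% of all tested genes). The membrane protease gene MMP14 rose from 6.53 ± 0.22 to 9.0 ± 0.602 FPKM. S100A4 fell from 4.12 ± 0.826 to 2.45 ± 0.0415 FPKM and ACTA2 from 7.70 ± 0.554 to 6.65 ± 0.296 FPKM. VIM and CDH2 had no row and were not analysed here.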
